A study of Mus musculus with 117 samples.

Results

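The insulin, growth hormone and leptin axis was followed through 10 genes: Igf1, Igfbp1, Igfbp2, Igfals, Insr, Irs1, Irs2, Ghr, Lepr and Socs2. They were taken as a list, by name, from the 21631 protein-coding genes of the autosomes and X. Each gene was read from 2 kb before its lower coordinate to 2 kb after its higher one, which gave 3832 of the 13168874 bins of 200 bp on these chromosomes. The data are chromatin states of hepatocytes, which make up most of the liver, from female mice aged 12 weeks. They belong to 9 inbred strains: the wild-derived WSB/EiJ, PWK/PhJ and CAST/EiJ, and the laboratory strains C57BL/6J, A/J, DBA/2J, 129S1/SvImJ, NZO/HlLtJ and NOD/ShiLtJ. Chromatin immunoprecipitation and sequencing (ChIP-seq) was carried out for the histone marks H3K27ac, H3K27me3, H3K4me3 and H3K4me1 in 3 mice per strain and mark, with 1 input library per strain, which makes 117 libraries. All mice were untreated as far as the labels say, and the groups differed by strain alone. The authors' deposited segmentation gives each 200-bp bin of a strain 1 of 14 states. A state number is used here as a name only, and no mark is assigned to it.

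One segmentation combines all mice of a strain, so each strain is 1 value, no error within a strain can be given, and 2 single strains cannot be tested against each other. Every SD below describes the spread between the 9 strains, or between the strains of a named group. Read depth is unknown, and so is its part in any difference between strains. As background, NZO/HlLtJ mice become obese and insulin resistant, and NOD/ShiLtJ mice develop autoimmune diabetes.

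Growth hormone from the pituitary binds its receptor on hepatocytes and acts through the kinase JAK2 and the factor STAT5, which switches on Igf1, Igfals and Socs2. IGF-1 leaves the liver and circulates in a complex with a binding protein and the acid-labile subunit, while SOCS2 dampens the receptor's signal. Insulin acts through its receptor and the adaptors IRS1 and IRS2 to hold back FOXO factors, which otherwise drive Igfbp1 and Irs2 in the fasted liver. Leptin, from fat, acts mainly on the brain, and the liver makes chiefly short and soluble forms of its receptor.

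The labelled cell type was checked first. All 8 hepatocyte marker genes (Alb, Ttr, Apoa1, Apob, Cps1, Serpina1a, Hnf4a and Tat) held state 3 in all 9 strains and state 13 in none. State 3 lay mostly at gene starts, and states 14 and 13 were the most widespread states. States 1 to 12, that is everything outside those 2, covered between 89.4% and 100% of these genes' spans as means over strains. The lowest value in a single strain was 76.6%, at Hnf4a. Of 5 genes each for endothelial, Kupffer, stellate and bile duct cells, 0 held state 3 in all 9 strains, and 4, 4, 5 and 5 of them held state 13 in at least 1 strain. State 3 was found in 6 strains at Stab2 and 5 at Pecam1, both endothelial, and in 6 at Sox9, a bile duct gene. At the other genes of these lists it was found in 1 strain at most. The state 13 count includes Stab2, with a mean of only 0.0779% of bins. It also includes Vsig4, a Kupffer gene on the X chromosome, with 100%. The median share of states 1 to 12 was 10.8%, 0.639%, 4.02% and 9.62% in these lists, in the same order, with single genes at up to 71.3% in the bile duct list.

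The DNA just before the starts of 3 of the genes is shown because they differ in CpG content, from near the median of all windows to high, and carried state 3 in all 9 strains. RefSeq's promoter table for GRCm38.p6 lists 8 of the 10 genes; Insr and Socs2 were not matched. Each line is the 250 bases before the gene's first listed start, 5′ to 3′ on the coding strand. Capitals mark a match to CAAAACA, the core of the insulin response element that FOXO factors bind, or to its reverse complement TGTTTTG.

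Igfbp1, chr11:7197537-7197786, plus strand: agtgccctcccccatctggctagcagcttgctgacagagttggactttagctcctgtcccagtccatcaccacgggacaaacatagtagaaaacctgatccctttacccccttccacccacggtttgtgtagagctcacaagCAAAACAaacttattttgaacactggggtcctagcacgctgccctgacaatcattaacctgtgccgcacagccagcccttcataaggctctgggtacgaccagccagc
Igfbp2, chr1:72824230-72824479, plus strand: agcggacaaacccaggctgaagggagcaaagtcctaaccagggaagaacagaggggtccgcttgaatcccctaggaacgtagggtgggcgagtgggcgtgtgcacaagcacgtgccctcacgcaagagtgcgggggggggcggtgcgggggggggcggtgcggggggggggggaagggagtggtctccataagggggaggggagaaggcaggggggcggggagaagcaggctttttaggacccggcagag
Irs2, chr8:11008930-11009179, minus strand: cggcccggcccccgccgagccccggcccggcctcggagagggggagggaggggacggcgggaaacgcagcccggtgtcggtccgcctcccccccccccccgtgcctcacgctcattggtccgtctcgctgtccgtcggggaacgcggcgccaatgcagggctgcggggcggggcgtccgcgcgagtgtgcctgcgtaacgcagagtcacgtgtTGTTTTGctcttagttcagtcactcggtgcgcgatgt

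The Igfbp1 window holds 1 match, 108 bases before the start, and 5 CpG dinucleotides. The Igfbp2 window holds no match and 14 CpG. The Irs2 window holds 1 match, 37 bases before the start, and 34 CpG, a count at percentile 96.5 of 32851 such windows, whose median is 6. The Igfbp1 window is at percentile 44.4 for CpG, near the middle, so the match is present both there and in the CpG-rich window of Irs2. It is found on either strand in 5.561% of all windows, and it is a match of letters, not a measured binding site.

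Shorter stretches of 30 bases show the other matches that bear on the axis. For Irs1 and Lepr the capitals again mark the insulin response core, and for Igfals they mark TTCNNNGAA, the STAT5 motif, which reads the same on both strands and is found in 7.02% of all windows.

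Irs1, chr1:82291533-82291562, minus strand, 111 bases before the start: ggctccgtcacgTGTTTTGctcctctggag
Irs1, chr1:82291454-82291483, minus strand, 32 bases before the start: gcagccgccgctTGTTTTGgttggggctct
Lepr, chr4:101717780-101717809, plus strand, 114 bases before the second listed start: gcaaattagaaaCAAAACAaatagaaaagc
Igfals, chr17:24877597-24877626, plus strand, 236 bases before the first listed start: cgatctataatTTCTCAGAAaagaggctga
Igfals, chr17:24878162-24878191, plus strand, 58 bases before the second listed start: tctgccaggtgTTCCTAGAAgaggccctgg

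GTAAACA, the general FOXO core, was also searched for on both strands. It is found in 3.166% of all windows and, among these genes, once, before the second start of Igfals. The listed windows of Igf1 and Ghr hold none of the 3 motifs, which says only that these letters are not in these windows.

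States 1 to 12 covered over 90% of 6 of the 10 genes on average, and less of Ghr, Insr, Socs2 and Lepr. The median share over the 10 genes was 93.5%, against 21.3% over all protein-coding genes. Igfals, Igfbp2, Igf1 and Igfbp1, which encode IGF-1, the binding proteins IGFBP1 and IGFBP2 and the acid-labile subunit, had the highest means, from 96.8% to 100%. Other binding protein genes, outside the 10, ranged widely: Igfbp4 had 93.0%, Igfbp6 64.8%, Igfbp5 39.2%, Igfbp3 21.9% and Igfbp7 12.1%. The receptors Ghr, Insr and Lepr had 83.0%, 68.2% and 18.3%. State 1 was found in all 10 genes in all 9 strains, as in 53.7% of all coding genes. State 3 was found in all 9 strains in 9 of the 10 genes, Lepr being the exception, as in 45.1% of all coding genes. State 13 was absent in every strain from the same 9 genes, as it was from 53.7% of autosomal genes.

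**Figure D1:**
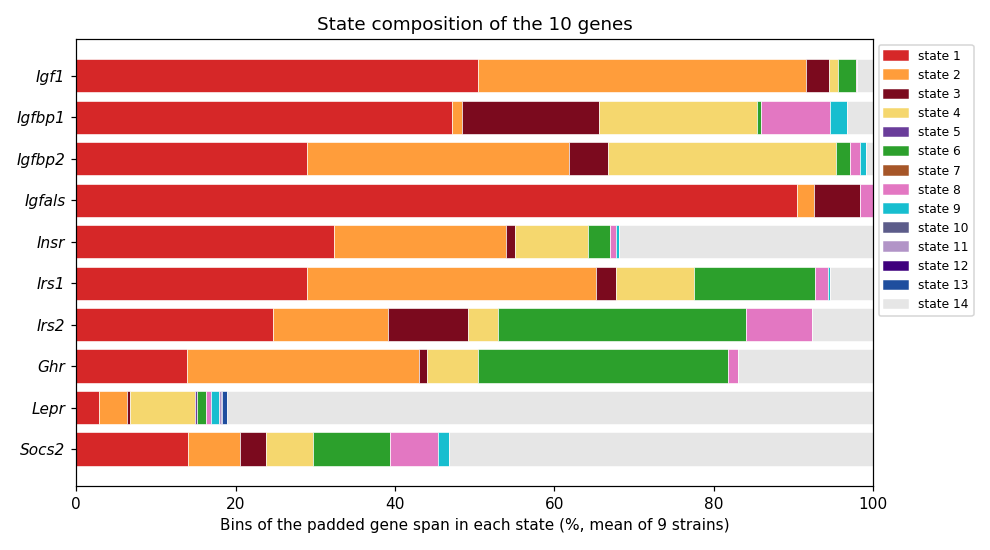
Horizontal bars give the mean percentage over 9 strains of each gene's 200-bp bins in each of the 14 states; each bar sums to 100. States 1 and 2 (red and orange) make up most of Igf1, state 1 most of Igfals, state 6 (green) the largest part of Irs2 and Ghr, and state 14 (light grey) 81.0% of Lepr.

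Igf1 encodes the growth factor itself. It lies on chromosome 10 from 87858265 to 87937047 (GRCm38.p6, like all gene positions here). The lncRNA Igf1os overlaps Igf1 or the 2 kb to either side, so a bin in the overlap cannot be given to either gene. States 1 to 12 covered 97.3% of the Igf1 span in the lowest strains, 97.6% at the median and 100% in PWK/PhJ. State 1 held 50.4% ± 11.7 of the bins and state 2 held 41.2% ± 12.7. Strains therefore differed less in whether Igf1 was covered than in which of these 2 states covered it: exchanges between states 1 and 2 made up 77.2% of all disagreement between strain pairs. State 1 was highest in NOD/ShiLtJ (69.4%) and NZO/HlLtJ (67.7%), had a median of 46.0% and was lowest in PWK/PhJ (36.9%). The next strain below NZO/HlLtJ was A/J, with 55.7%.

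NOD/ShiLtJ and NZO/HlLtJ were also the highest 2 strains for state 1 at Insr and Ghr. At Insr they had 40.3% and 39.7%, the third strain 36.2%, and PWK/PhJ, the lowest, 18.8%. At Ghr NZO/HlLtJ had 17.6% and NOD/ShiLtJ 16.8%, the third strain 15.2%, and the lowest, C57BL/6J, 10.4%. These 2 strains led in 3 of the 10 genes, against 4.12% of the 11617 coding genes with state 1 in all 9 strains. This pair of strains was singled out after the values had been seen, so the count is a description. Over the whole of the autosomes and X state 1 covered 2.63% in NZO/HlLtJ and 2.46% in NOD/ShiLtJ, next after 129S1/SvImJ with 2.64%, and 2.13% in PWK/PhJ, the lowest. The part of this general level in the gene values was not tested.

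State 3 formed 1 island at Igf1, between 87859401 and 87862600, over the listed start in all 9 strains. Its longest unbroken segment was 1600 bp in WSB/EiJ, 2000 bp at the median and 3200 bp in CAST/EiJ. The longest run of bins with the same state in all 9 strains was 5400 bp of state 1, from 87892001 to 87897400, well inside the gene.

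Igfals encodes the acid-labile subunit that keeps IGF-1 complexes in the blood. It lies on chromosome 17 from 24877844 to 24882011. Nubp2, a protein-coding gene, and the lncRNA Gm41549 overlap Igfals or the 2 kb to either side, so the state of a shared bin cannot be given to either. States 1 to 12 covered 100% of the Igfals span in all 9 strains, and state 1 alone covered 90.5% ± 4.29. One run of state 1 was shared by all 9 strains over 4000 bp. Its state 3 segments were short, from 200 bp in PWK/PhJ and WSB/EiJ to 600 bp in 5 strains, against a median of 800 bp over the 9750 coding genes with state 3 in every strain. The STAT5 motifs printed above lay in windows that were in state 1 in all 9 strains.

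Igfbp1 encodes a binding protein that insulin holds low and fasting raises. It lies on chromosome 11 from 7197787 to 7202546. Its bins were in state 1 (47.2% ± 7.27), state 4 (19.8% ± 6.23) and state 3 (17.3% ± 7.44), and no other gene of the 10 had as large a share of state 3. State 3 covered 8.89% of the bins in DBA/2J, 17.8% at the median and 33.3% in 129S1/SvImJ. The island over the start was 800 bp long in DBA/2J, 1000 bp at the median and 2000 bp in 129S1/SvImJ. The bins of the printed window were state 1 and then state 3 in all 9 strains. Further state 3 was found in 5 strains. It lay across the far end, between 7202401 and 7203600, in 129S1/SvImJ (1000 bp) and NOD/ShiLtJ (800 bp), and inside the gene in C57BL/6J (400 bp), WSB/EiJ (600 bp) and PWK/PhJ (200 bp). In DBA/2J the far end held 800 bp of state 14, from 7201801 to 7202600, where none of the other 8 strains had state 14, and DBA/2J had the lowest share of states 1 to 12, at 86.7% against 93.3% to 100% in the others.

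Igfbp2 encodes another binding protein made by the liver. It lies on chromosome 1 from 72824480 to 72852474. In 7 of the 9 strains states 1 to 12 covered all of its bins, while NOD/ShiLtJ had 98.1% and NZO/HlLtJ 94.4%. The missing bins were 1 stretch of state 14 in each of these strains. In NZO/HlLtJ it ran over 1800 bp, from 72828401 to 72830200, and in NOD/ShiLtJ over 600 bp, from 72831401 to 72832000, and neither stretch held state 14 in any other strain. The unbroken stretch of states 1 to 12 across the start was accordingly 6.4 kb in NZO/HlLtJ and 11.8 kb in NOD/ShiLtJ, against 33.4 to 89.4 kb in the other 7.

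The start island of Igfbp2 was shortest in the same strains. State 3 there was 600 bp long in NOD/ShiLtJ and NZO/HlLtJ, and 1000 to 1600 bp in the others. NZO/HlLtJ had a further 800 bp of state 3 from 72844001 to 72844800, where no other strain had any. State 4 made up 45.3% of Igfbp2 in NZO/HlLtJ, 28.6% at the median and 16.1% in A/J, and state 2 made up 14.9%, 37.3% and, at the highest, 44.1% in CAST/EiJ and WSB/EiJ. NZO/HlLtJ differed from the other strains in 47.1% of the bins on average, and the next strain, 129S1/SvImJ, in 37.4%. 

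**Figure D2:**
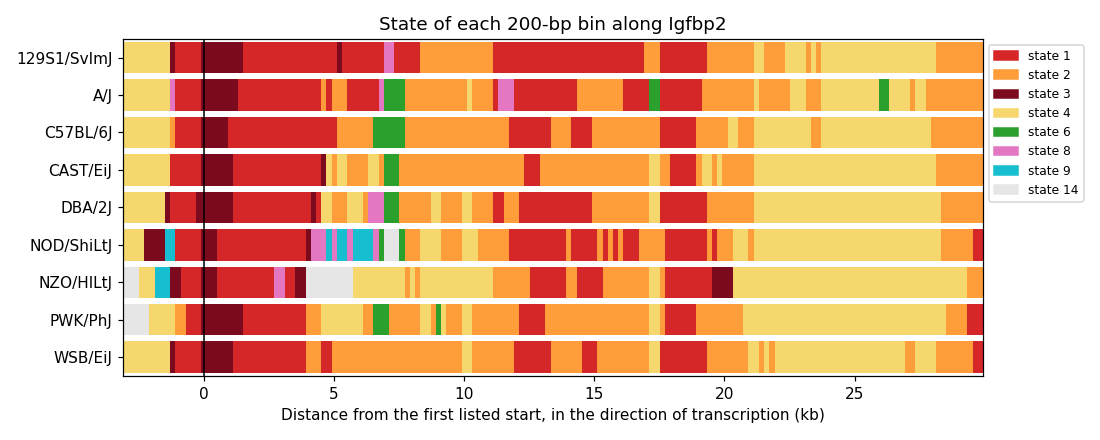
Each row is a strain and each block a 200-bp bin of Igfbp2, coloured by state; the x axis is the distance in kb from the first listed start (black line). The grey gap of state 14 after the start is seen in NZO/HlLtJ (1800 bp) and, further in, NOD/ShiLtJ (600 bp), and these rows have the shortest dark red state 3 blocks at the start.

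Ghr encodes the growth hormone receptor. It is the longest of the genes, on chromosome 15 from 3317755 to 3583352, with its start at the higher coordinate. The lncRNA Gm41254 overlaps Ghr or the 2 kb to either side. State 6 held 31.5% ± 5.39 of the Ghr bins, state 2 held 29.2% ± 4.69 and state 14 held 16.96% ± 2.72. Exchanges of states 2 and 6 were the largest part of the disagreement between strain pairs (31.6%), followed by states 6 and 14 (20.7%). The start, by contrast, was alike: state 3 covered 63.6% of the bins within 1 kb of it in each of the 9 strains, and its island was 2400 bp long in 6 strains, 2200 bp in NOD/ShiLtJ and NZO/HlLtJ, and 2000 bp in WSB/EiJ. The share of states 1 to 12 was 79.7% in WSB/EiJ, 82.5% at the median and 88.1% in 129S1/SvImJ.

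Socs2 encodes the inhibitor that growth hormone induces. It lies on chromosome 10 from 95383903 to 95417321. The lncRNAs Gm33230 and 5730420D15Rik overlap Socs2 or the 2 kb to either side. State 14 held 53.3% ± 6.04 of the Socs2 span and state 1 held 14.1% ± 2.04. State 3 was found in all 9 strains between 95415801 and 95417000, next to the end with the higher coordinate, while the 11 bins around the other end were state 14 in every strain. 129S1/SvImJ stood apart, with 61.2% of its bins in states 1 to 12 against 39.4% to 47.9% in the other 8. State 4 held 18.6% of Socs2 in that strain and between 2.13% and 6.91% in the others. One stretch of it, from 95404601 to 95405800, was state 4 in 129S1/SvImJ and state 14 in the other 8 strains. A stretch of 800 bp from 95414401 to 95415200 was state 3 in NZO/HlLtJ and state 1 in the other 8.

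Insr encodes the insulin receptor, on chromosome 8 from 3150922 to 3279649. It was split between state 1 (32.3% ± 7.30), state 14 (31.8% ± 4.40) and state 2 (21.6% ± 7.59). State 3 lay at the end with the higher coordinate, from 3278401 to 3279800, in all 9 strains, with 1000 bp in PWK/PhJ and WSB/EiJ, 1400 bp in CAST/EiJ and 1200 bp in the other 6. The opposite end was state 14 throughout. States 1 to 12 covered 60.6% in PWK/PhJ, 67.7% at the median and 76.7% in 129S1/SvImJ. In 129S1/SvImJ 2200 bp from 3178601 to 3180800 were state 4 where the other 8 strains had state 14, and in C57BL/6J the same held for 2000 bp from 3172801 to 3174800. From the state 3 island, states 1 to 12 ran unbroken for 11.4 kb in PWK/PhJ and 14 kb in 129S1/SvImJ, and for 74 to 86.6 kb in the other 7 strains. State 1 and state 2 changed places between strains here as at Igf1, with 46.6% of the disagreement: PWK/PhJ had 34.3% of Insr in state 2 and NOD/ShiLtJ 11.6%.

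Irs1 and Irs2 encode the adaptors that pass the receptor's signal on. Irs1 lies on chromosome 1 from 82233105 to 82291439 and Irs2 on chromosome 8 from 10984681 to 11008929. Both have their start at the higher coordinate. The lncRNA 9530052E02Rik overlaps Irs2 or the 2 kb to either side. States 2, 1 and 6 held 36.3% ± 3.90, 28.9% ± 2.45 and 15.2% ± 4.98 of Irs1. In Irs2 state 6 came first with 31.1% ± 5.48, and state 1 held 24.6% ± 3.07. States 1 to 12 covered Irs1 by 89.1% in DBA/2J, 94.2% at the median and 100% in CAST/EiJ. For Irs2 they covered 87.3% in NOD/ShiLtJ, 93.0% at the median and 94.4% at the highest.

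Irs2 had the longest run of state 3 that all 9 strains shared among the 10 genes. Its longest segment was 2800 bp in 7 strains and 3000 bp in A/J and NZO/HlLtJ, and 2600 bp of it, from 11007201 to 11009800, were state 3 in all 9 strains. That stretch contains the printed Irs2 window. At Irs1 the longest unbroken segment was 1000 bp at the lowest and at the median, and 1600 bp in C57BL/6J. The body of Irs2 varied more than its start: state 2 held 26.8% of it in 129S1/SvImJ and 0% in NOD/ShiLtJ, where state 8 reached 18.3%, and exchanges of states 2 and 6 made up 40.7% of the disagreement.

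Lepr encodes the leptin receptor, on chromosome 4 from 101717137 to 101815352. State 14 held 81.0% of its span on average. The share of states 1 to 12 was 8.98% in NZO/HlLtJ, 16.8% at the median, in A/J, and 36.3% in CAST/EiJ. DBA/2J (9.77%), WSB/EiJ (11.7%) and NOD/ShiLtJ (14.3%) were below the median, and C57BL/6J (17.97%), 129S1/SvImJ (24.0%) and PWK/PhJ (24.4%) were above it. The highest strain, CAST/EiJ, is wild-derived, and so is WSB/EiJ, among the lowest 3. CAST/EiJ differed from the other strains in 31.7% of Lepr bins on average, the next strain, PWK/PhJ, in 19.8%, and the remaining 7 in 14.01% to 17.9%. CAST/EiJ had 20.3% of the gene in state 4, against 1.95% in NZO/HlLtJ, and 4200 bp from 101734201 to 101738400 were state 4 in CAST/EiJ and state 14 in the other 8.

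The start of Lepr held state 3 in some strains and not in others. Of the 11 bins within 1 kb of it, state 3 held 7 in CAST/EiJ, 5 in 129S1/SvImJ, 3 in PWK/PhJ, 1 in C57BL/6J and 0 in the other 5. State 1 held 4 to 6 of these bins in 8 strains and 0 in NZO/HlLtJ. In NZO/HlLtJ the window was 5 bins of state 5, 5 of state 9 and 1 of state 11. In A/J and NOD/ShiLtJ it was state 1 followed in number by states 8 and 9, and in WSB/EiJ states 1 and 9 with 1 bin of state 5 and 2 of state 14.

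States 5, 11 and 12 were found within Lepr in 3 strains, NZO/HlLtJ (6, 3 and 3 bins), WSB/EiJ (3, 2 and 1) and DBA/2J (1, 2 and 2). They were in none of the other 6 strains. At least 1 of these 3 states was found in 21.6% of autosomal coding genes in at least 1 strain. State 13 was found in 15 Lepr bins in CAST/EiJ, 9 in PWK/PhJ, 5 in WSB/EiJ, 2 in DBA/2J and 2 in 129S1/SvImJ. The unbroken stretch of states 1 to 12 over the start was 2.8 kb in WSB/EiJ and 3.4 kb in NZO/HlLtJ, 29.6 kb at the median, and 73.6 kb in C57BL/6J, 80.6 kb in 129S1/SvImJ and 81.4 kb in CAST/EiJ. Strains with state 3 at the start had the 4 longest stretches, with PWK/PhJ at 32 kb, which is a description of 9 points. These 4 stretches lay mostly before the gene, which begins at 101717137. In C57BL/6J the stretch ran from 101646001 to 101719600. Inside the gene it ended further in for NOD/ShiLtJ (101720800) and A/J (101720400), which had no state 3 at the start.

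**Figure D3:**
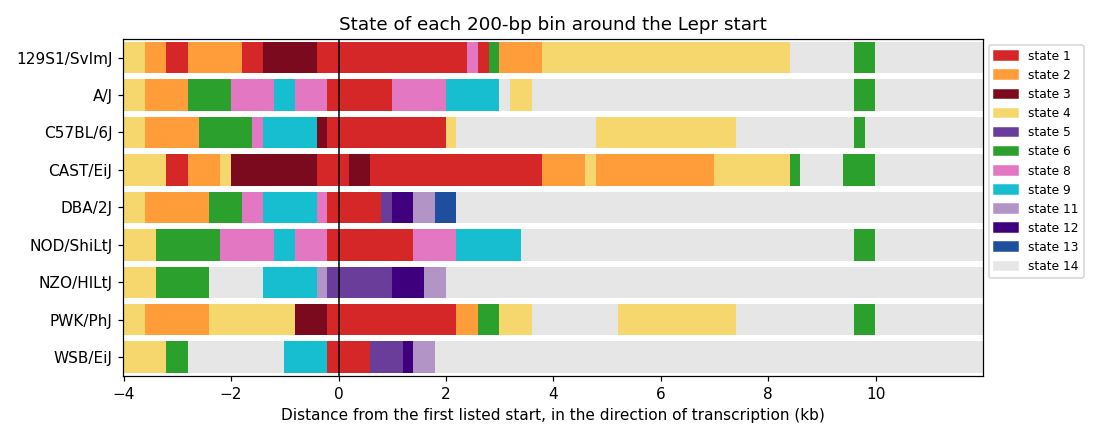
Each row is a strain and each block a 200-bp bin around the Lepr start, coloured by state; the x axis is the distance in kb from the first listed start (black line). State 3 (dark red) lies just before the start in 129S1/SvImJ, CAST/EiJ, PWK/PhJ and, as 1 bin, C57BL/6J; NZO/HlLtJ has no state 1 there and shows states 5, 12 and 11 (purples) after the line.

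State 3 at the start was compared with the far end of the gene within each strain, for the 17274 coding genes whose strand is given. At Igfbp1 it covered 48.5% ± 6.43 of the bins within 1 kb of the start and 11.1% of those at the far end, a difference of 37.4 points. The difference was 49.5 points at Igfbp2, 16.2 at Igfals, 53.5 at Irs1, 93.9 at Irs2 and 63.6 at Ghr. In each of the 9 strains the start was the higher end of these 6 genes (exact permutation test by sign flips, two-sided, p = 0.0039, the smallest the design allows, adjusted p = 0.0103 over all genes by Benjamini-Hochberg). The start was called higher in 40.8% of the 17274 genes and lower in 1.01%. With windows of 500 bp the difference at Igfals was 0, since its island lies further in, over the third listed start.

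Lepr did not pass this test: its difference was 16.2 points ± 24.0 and was above 0 in 4 of 9 strains (exact permutation p = 0.125, adjusted p = 0.274). With a difference in only 4 strains the sign-flip test cannot go lower. Igf1 had no state 3 in either window, because its annotated gene begins upstream of the island. With windows of 2 kb its difference was 21.7 points (adjusted exact permutation p = 0.0102). Insr and Socs2 have no strand in the tables used here and were not tested.

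Wild-derived and laboratory strains were compared by their share of states 1 to 12. None of the 10 genes passed (exact two-sided permutation test over all 84 splits of 9 strains into 3 and 6, Benjamini-Hochberg over 21631 genes), and neither did any other coding gene (0%). The smallest p this design allows is 0.0119, and 544 genes reached it. At an unadjusted p under 0.05, 7.47% of all genes and 1 of the 10, Igf1, were found. Igf1 had 98.9% ± 1.21 in the 3 wild-derived strains and 97.5% ± 0.292 in the 6 laboratory strains, a difference of 1.37 points (exact permutation p = 0.0357, adjusted p = 0.607). Without the 2 kb of padding it was 0.169 points (adjusted exact permutation p = 0.823), and the longest state 14 stretch at Igf1, in the 8 strains that had one, reached the end of the padding past the gene, at 87939200. Lepr had the widest gap, 24.2% ± 12.3 against 15.3% ± 5.60, which is 8.85 points, and the groups overlapped (exact permutation p = 0.167, adjusted p = 0.742). The differences of Socs2 and Insr were -5.50 and -5.14 points, lower in the wild-derived strains, with exact permutation p = 0.25 and 0.167 (adjusted p = 0.830 and 0.742).

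Strains that lay outside the range of the other 8 were counted gene by gene. 129S1/SvImJ was highest in 3 of the 10 genes, Insr, Ghr and Socs2 (8.49% of all coding genes), and lowest in 0 (1.04%). CAST/EiJ was highest in 2, Irs1 and Lepr (14.2% of all genes), and lowest in Socs2 (4.21%). NZO/HlLtJ was lowest in 2, Igfbp2 and Lepr (2.49%), and highest in 0 (6.70%). DBA/2J was lowest in 2, Igfbp1 and Irs1 (5.26%), and highest in 0 (3.31%).

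Single genes made up the rest of these counts. NOD/ShiLtJ was lowest in Irs2 (3.26%) and highest in 0 of the 10 (17.5%). PWK/PhJ was highest in Igf1 (5.11%) and lowest in Insr alone, while it was lowest in 32.9% of all coding genes. WSB/EiJ was lowest in Ghr (7.40%) and highest in 0 (4.43%). A/J (3.54% of all genes highest, 4.38% lowest) and C57BL/6J (3.63% and 3.72%) were inside the range in all 10 genes. The counts are small and are given as a description. Without the 2 kb of padding NZO/HlLtJ was lowest in 1 of the 10 in place of 2.

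By bin-wise difference from the other 8 strains, which also counts exchanges among states 1 to 12, other strains stood out. NOD/ShiLtJ differed most at Igf1 (29.3%), Igfals (13.7%) and Irs1 (35.4%), and was the most different strain in 16.9% of all coding genes. 129S1/SvImJ differed most at Igfbp1 (39.4%), Irs2 (36.2%) and Socs2 (31.6%), and in 4.77% of all genes. NZO/HlLtJ did so at Igfbp2 and Ghr (31.6%; 4.89% of all genes), PWK/PhJ at Insr (31.9%; 28.5%) and CAST/EiJ at Lepr (15.7%). The other 4 strains led at none of the 10 genes, and in 11.7% (WSB/EiJ), 5.04% (A/J), 3.50% (DBA/2J) and 3.19% (C57BL/6J) of all genes. The margin over the next strain was small at Ghr, where CAST/EiJ had 31.5%, and at Irs2, where NOD/ShiLtJ had 35.7%.

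**Figure D4:**
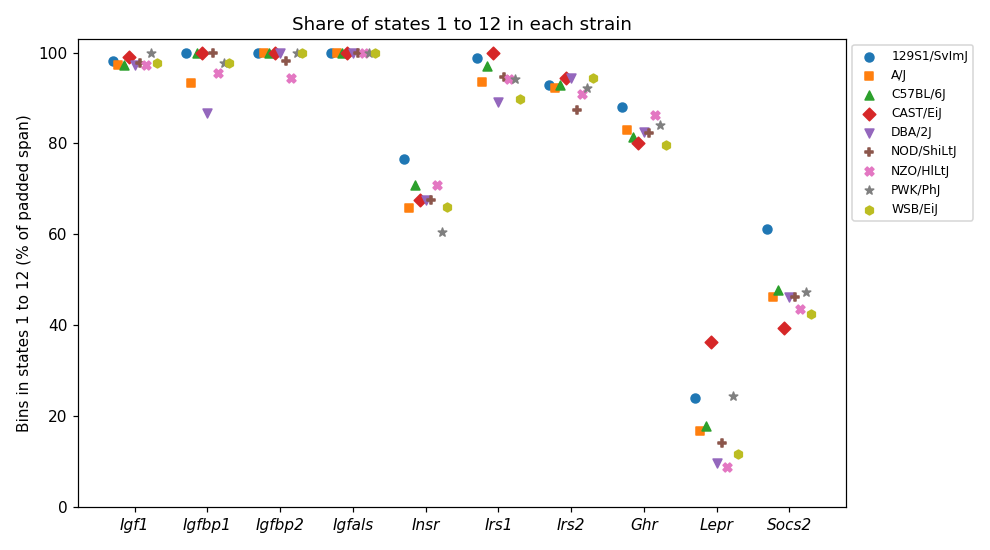
Points give the percentage of each gene's bins in states 1 to 12 for each of the 9 strains (symbols), 1 value per strain with no error bar. Igfals is at 100% in all 9 strains; DBA/2J is lowest at Igfbp1 (86.7%), CAST/EiJ is highest at Lepr (36.3%), 129S1/SvImJ at Socs2 (61.2%), and PWK/PhJ is lowest at Insr (60.6%).

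The 10 genes were placed among all coding genes by divergence, the percentage of bins whose state differed between 2 strains, averaged over the 36 pairs. Pairs share strains, so the values are a description. The median of the 10 was 28.4%, against 19.7% over all coding genes. Igfbp2 was the most divergent, at 34.6% (percentile 85.8), and Igfbp1, Irs1 and Irs2 followed at 32.2%, 31.8% and 31.2%. Igfals was the least divergent, at 8.27% (percentile 18.1), and Lepr was below the median of all genes, at 17.8% (percentile 44.9).

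Both low values depended on which bins were counted. With 10 kb of padding Igfals reached 30.1%. For Lepr, state 14 in all 9 strains filled much of the span, and over bins outside state 14 in at least 1 strain its divergence was 40.7%. Socs2 moved in the same way from 25.5% to 39.6%. Leaving out bins in state 14 in all 9 strains cannot lower the value of any gene. Where a match within 1 bin to either side counted as the same state, the median of the 10 was 21.0%. These alternatives were run on the 10 genes only, so their values have no place among all coding genes.

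**Figure D5:**
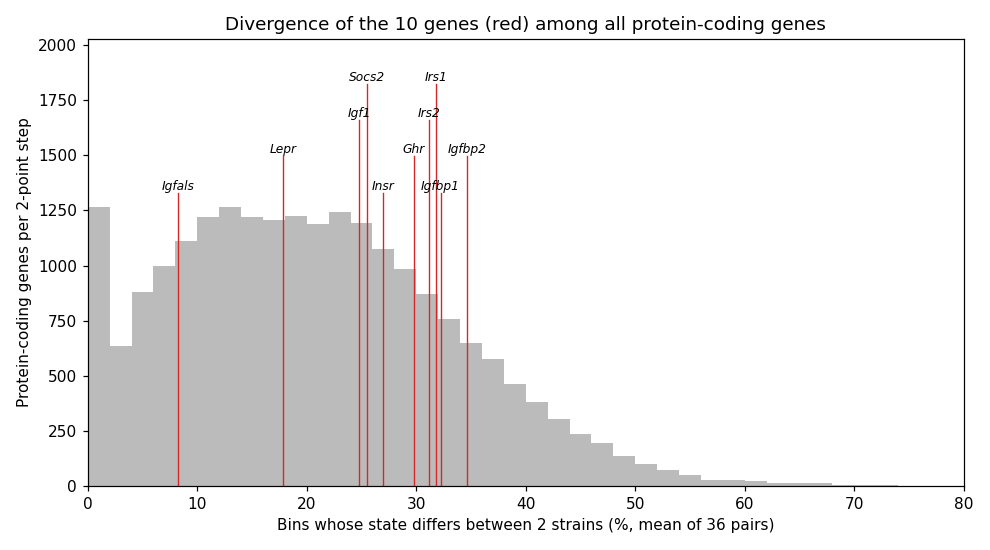
Grey bars count the protein-coding genes by divergence, the mean percentage over 36 strain pairs of bins in different states, in steps of 2 points; red lines mark the 10 genes. Igfals (8.27%) and Lepr (17.8%) lie to the left of the median of all genes, 19.7%, and the other 8 lie to the right.

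A further 39 genes of the same pathways were read from a list. State 3 was found in all 9 strains in 28 of them (45.1% of all coding genes) and in no strain in 8 (41.0% of all coding genes). Those 8 were Igf1r, Igf2, Igfbp3, Igfbp7, Gh, Ins1, Ins2 and Lep. The median share of states 1 to 12 was 62.2% and the median divergence 24.1%, against 21.3% and 19.7% over all coding genes. None passed the comparison of wild-derived with laboratory strains; 4 were lower in wild-derived strains at an unadjusted exact permutation p under 0.05 (5.23% of all coding genes) and 0 were higher (2.24%).

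The most divergent of the list were Trib3, an inhibitor of AKT (48.0%), Socs1, a relative of Socs2 (46.1%), Stat5a (41.3%), Shc1, an adaptor of the insulin receptor (39.6%), and Prlr, the prolactin receptor (35.5%). All 5 held state 3 in every strain. The least divergent were Gh, the hormone itself (4.53%), Igf1r, the IGF-1 receptor (8.55%), Jak2, the kinase of the growth hormone receptor (10.9%), Ins2 (12.6%) and Ins1 (13.8%), the insulin genes. State 13 held 87.6% of Igf1r and 69.7% of Ins2. Jak2 was the one of these 5 with state 3 in every strain. In the hepatocytes of these strains Gh, Ins1, Ins2, Lep, Igf2 and Igf1r thus lacked state 3. Igf1, Ghr, Insr, Irs1 and Irs2 held it in all 9 strains, and Lepr in 4.

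The genes on other chromosomes most like each of the 10 were found by composition: the summed differences between the 14 state percentages, divided by 2 and averaged over 9 strains, with 0 for identical genes and 100 for none in common. Igf1 was nearest to Ahcy, an enzyme of methionine metabolism (10.6 points), and Igfals to Tmem150a (4.50 points). Ghr was nearest to Ankrd11 (9.42 points). Irs1 was nearest to Mtus1 (12.4 points) and then to Pik3r1, a regulatory subunit of the PI3 kinase that binds IRS proteins (13.2 points).

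Further nearest neighbours, at 7.997 to 20 points, were Ctdspl for Lepr (7.997), Aff4 for Socs2 (10.3), Rab1a for Irs2 (19.1) and Actb for Igfbp1 (20). The second nearest were Eva1a for Igf1, Insig1 for Igfbp1, Tex2 for Igfbp2, 0610030E20Rik for Igfals, Fbxo21 for Insr, Hnrnpa3 for Irs2, Nrip1 for Ghr, Efcab2 for Lepr and Usp33 for Socs2. Irs2 and Igfbp1 thus had the most distant nearest genes among the 10, while the median distance from them to all other genes was 81.0 and 87.6 points.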

How the data were processed

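The authors deposited 1 segmentation per strain, in which column 4 holds the state as a category, not a count or score. Per the submitters' processing notes the build was mm10, with FastQC 0.11.5 and MACS 1.4.2 named; the aligner and segmentation tool are not given in the sources used here. A further file held all strain segmentations laid end to end and was not used. Segments (563706 to 670397 per strain) were written as 200-bp bins, and gene spans, strands and promoter windows were taken from RefSeq tables of GRCm38.p6. Strains were grouped by their labels. The 10 genes are named in full, the 5 most and 5 least divergent of the pathway list, and the 2 genes most like each of the 10 in composition, on another chromosome and with at least 20 bins; a few names under these rules are not reported here. The members and lists were chosen with earlier results of these data known. Tests were exact permutation tests over strains (84 splits or 512 sign patterns), adjusted over all genes with a threshold of 0.05, and were tested on simulated data. Shared ancestry makes the strains less than independent. Alternatives covered padding, states counted, single bins, windows, matching and each strain left out; the background of autosomes alone was added later. The tools were matplotlib 3.10.9, scipy 1.17.1, pandas 2.3.3 and numpy 2.4.6 under Python 3.11.15.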

Additional observations from a re-analysis of the deposited data

Results flagged for a closer look

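In 8 of 30 sets of 9 strain values (10 genes by 3 measures), 1 strain lay apart: its gap to the nearest other strain was a larger part of the whole range than Dixon's critical value for 9 values. For independent values on a continuous scale chance flags about 1 set in 20. That rate does not carry over to these sets, since shares are capped at 100%, lengths move in steps of 200 bp and the measures of a gene share bins. The share of states 1 to 12 was low at Igfbp1 in DBA/2J (86.7%, the others from 93.3%), at Igfbp2 in NZO/HlLtJ (94.4%, the others from 98.1%) and at Irs2 in NOD/ShiLtJ (87.3%, the others from 90.8%). It was high at Socs2 in 129S1/SvImJ (61.2%, the others up to 47.9%). The mean difference from the other 8 strains was high at Igfbp2 in NZO/HlLtJ (47.1% of bins, the others up to 37.4%) and at Lepr in CAST/EiJ (31.7%, the others up to 19.8%). The longest state 3 segment was 1400 bp at Insr in CAST/EiJ (others 1000 to 1200 bp) and 2000 bp at Ghr in WSB/EiJ (others 2200 to 2400 bp), each a step of 1 bin. Igfbp2 in NZO/HlLtJ was the one gene and strain found by 2 of the 3 measures.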

How the results depend on the processing

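No paired analysis was possible because replicate numbers do not link strains, each with 1 segmentation; only the comparison of start with far end is paired, within each strain, by its design. No gene of the 21631 passed the comparison of wild-derived with laboratory strains under any alternative run, with 0 calls also whenever a strain was left out. Differences that changed sign were all far from the threshold: Igfbp1 (-0.40 points with 10 kb of padding), Ghr (2.42 points with states 1 to 4 counted) and Irs1 (-0.0852 and -0.980 points without A/J and DBA/2J, and from -2.56 without CAST/EiJ to 2.56 without WSB/EiJ); the cause was not tested. The median divergence of the 10 genes was 21.0% with a match within 1 bin, in place of 28.4%, which that looser rule lowers by construction, and 27.7% to 29.2% with a strain left out. Genes with less state 3 at the start than at the far end numbered 111 with windows of 500 bp and 316 with windows of 2 kb, in place of 174. With a strain left out there were 149 to 158 of them, and 6818 to 6884 genes were higher at the start. NZO/HlLtJ was lowest in 1 gene of the 10 without padding, in place of 2. Depth is unknown, and a short or faint state can be missed in a shallow library.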
